A study of Mus musculus with 8 samples.

Results

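The genes described here are 49 members of the DNA repair machinery, followed in RNA-seq of mouse embryonic sympathetic ganglia with and without normal Isl1, a LIM-homeodomain transcription factor of developing sympathetic neurons. They were chosen by name as genes of the Fanconi, recombination, mismatch and checkpoint pathways, by a rule that uses no measured value but was set with earlier results of these data known. All 49 were found in both deposited tables, beside 13506 genes in the E11.5 and 13413 in the E14.5 listing. For the comparison between pathways they were sorted into 10 groups by the textbook role of the protein.

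The E11.5 comparison set *Isl1* CKO ganglia (*Wnt1-Cre;Isl1* f/f, given as *Isl1*-/- in the sample labels) against control ganglia (*Wnt1-Cre;Isl1*+/+, labelled wild type). Both genotypes carried the *Wnt1-Cre* driver, which acts in neural crest lineages, and a *Rosa26-tdTomato* reporter, by which non-fluorescent tissue was trimmed away. The E14.5 comparison set ganglia of embryos homozygous for a hypomorphic *Isl1* allele, *Isl1* f-neo/f-neo, which lowers Isl1 in all cells rather than in neural crest derivatives alone, against wildtype ganglia. Each of the 4 groups had 2 libraries, made from ganglia pooled over several embryos. The tables hold 1 combined value per gene and genotype, as FPKM (fragments per kilobase of transcript scaled to the mapped fragments of the library). No single library and no read depth was available, so a difference could not be set against the spread between libraries, and no p-value was computed: every ratio below is a description of these values. Ratios are log2 of mutant over control on the FPKM + 0.1 scale, which understates the ratio of low genes, and "past the fold" means a difference of at least 1.5-fold on that scale (0.58 in log2).

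Cells meet DNA damage with pathways that divide the work by lesion. The Fanconi core complex marks the FANCD2-FANCI pair at interstrand crosslinks, and the BRCA proteins and their partners then direct repair by copying the sister chromatid, so this route serves cells in S and G2 phase. Non-homologous end joining, which holds broken ends with the Ku heterodimer and seals them, works throughout the cell cycle and is the main route for breaks in postmitotic neurons. Mismatch repair corrects replication errors, and the ATR-CHK1 checkpoint with Claspin guards stalled forks. Embryonic sympathetic neuroblasts are unusual in that they divide while already making neuronal proteins.

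The targeted gene was read out before the members. *Isl1* was listed at 133 FPKM in E11.5 control and 40.0 in CKO ganglia, 30.2% of control, and at 162 in E14.5 wildtype and 83.1 in hypomorphic ganglia, 51.3% of wildtype. The 11 sympathetic neuron markers were all present, led by *Stmn2* and *Dbh*, and none was at 0. They summed to 2503 and 2028 FPKM in the E11.5 genotypes and to 4112 and 3541 in E14.5 wildtype and hypomorphic ganglia. Of these markers 10 were lower in CKO at E11.5, 3 of them past the fold, against 46.1% and 12.9% of all genes. Other cell types differed between the E11.5 genotypes. The summed level of 16 listed erythroid genes came to 10911 FPKM in control and 69236 in CKO, that is 2.29% and 11.2% of all FPKM, and 15 of the 16 were past the fold higher in CKO. The exception was *Hbb-y*, an embryonic globin, at 7552 FPKM in control and listed at 0 in CKO, which may be a failed estimate. All 8 neural crest and glial markers were past the fold higher in CKO, with sums of 204 and 437 FPKM. So were 5 of 8 mesenchymal, 4 of 5 macrophage and 1 of 7 endothelial markers, against 18.9% of all genes. The 5 trophoblast and yolk sac genes in the listing were all past the fold higher too (sums 3.51 and 63.2 FPKM). Among them *Prl8a2*, named after its value was seen, was at 0.24 FPKM in control and 48.4 in CKO. In bulk ganglia, fewer cells of a type and less RNA per cell cannot be told apart.

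At E11.5 most of the repair genes were lower in CKO than in control ganglia, and the FANCD2-FANCI pair and the BRCA group had the lowest medians. Of the 49 members, 43 had a lower value in CKO (46.1% of all genes did), 23 were past the fold lower and none was past it higher, with a median log2 ratio of -0.56. Of all 13506 genes at that stage 12.9% were past the fold lower and 18.9% past it higher, and the median was 0.05, with quartiles of -0.31 and 0.45. *Bard1*, *Rad54b*, *Clspn*, *Brca1* and *Fanca* were the lowest 5 relative to control. Those nearest the threshold were *Atm* (-0.61) and *Tipin* (-0.63) inside it and *Msh3* (-0.57) and *Fancg* (-0.56) outside it. The erythroid genes took a larger share of the CKO total, and that total was itself larger, at 617263 FPKM against 476289 in control. CKO values were therefore also rescaled so that their sum without erythroid genes equalled that of control, which moved the median of all genes to -0.18. This scaling takes out the larger CKO total as well, so it is not a correction for the erythroid share alone. On that scale 30 members were past the fold lower and none higher, against 22.5% lower and 12.2% higher of all genes.

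**Figure D1:**
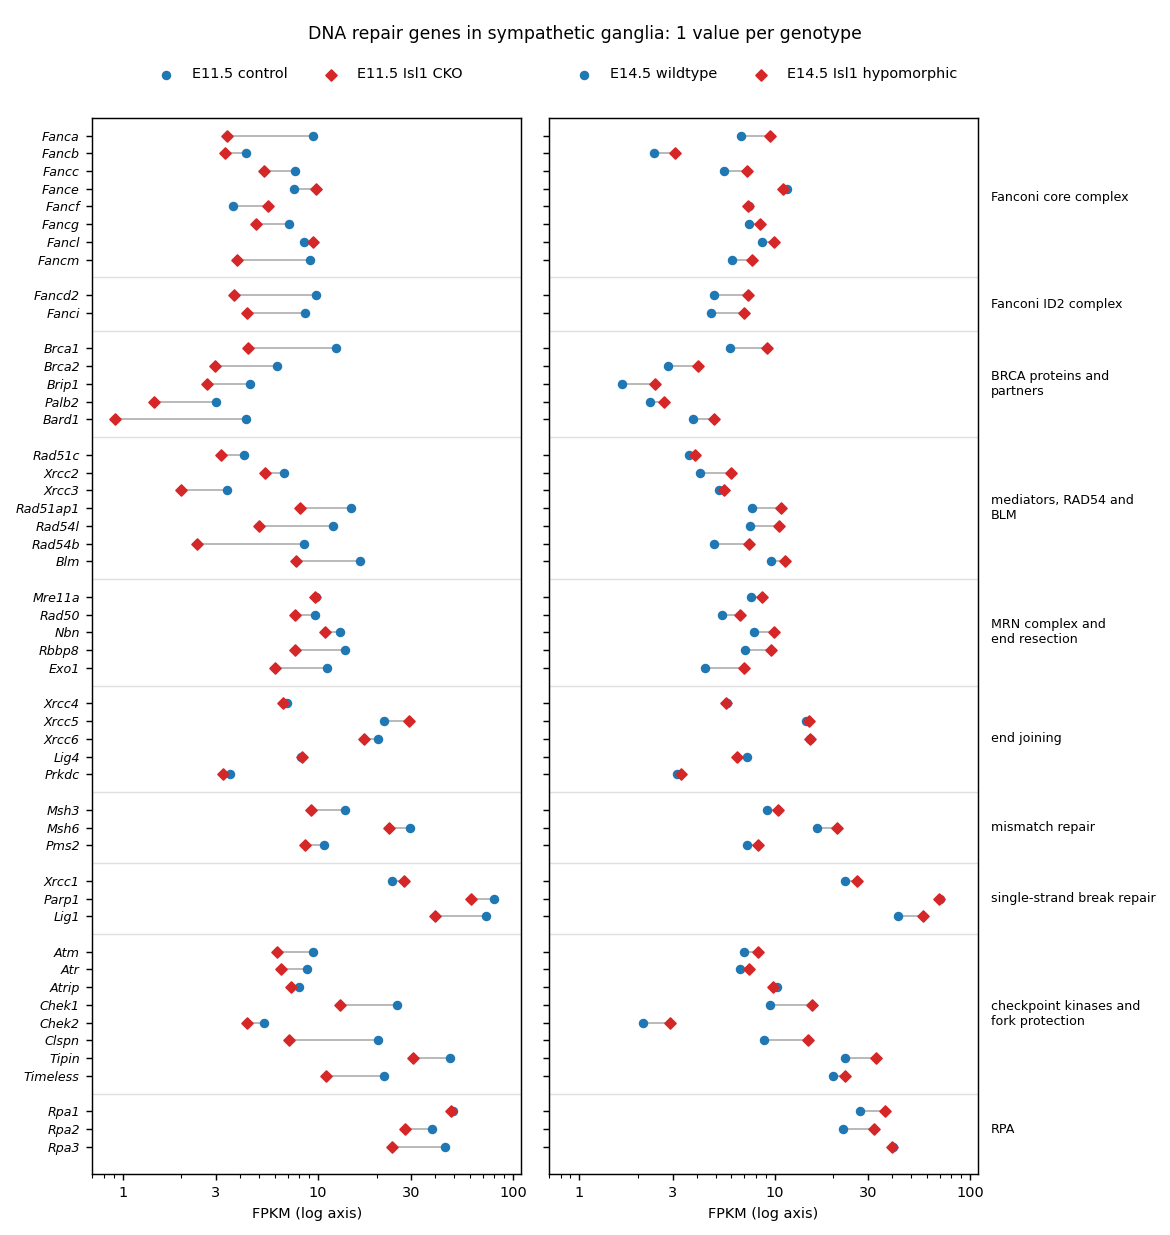
FPKM of the 49 DNA repair genes on a log axis, with 1 value per genotype from 2 combined libraries and no error available; circles are control or wildtype ganglia, diamonds are *Isl1* CKO (left, E11.5) or hypomorphic ganglia (right, E14.5), and lines join the values of 1 gene. At E11.5 the diamonds lie to the left of the circles for 43 of 49 genes, while at E14.5 they lie to the right for 41 of 49.

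The E11.5 ratios of the Fanconi core complex differed in sign. *Fanca*, a large scaffold subunit, was listed at 9.44 FPKM in E11.5 controls and 3.43 in CKO (a ratio of -1.44) and at 6.72 in E14.5 wildtype and 9.42 in hypomorphic ganglia, 0.48. *Fancm*, the translocase that brings the complex to DNA, was at 9.08 and 3.84 FPKM at E11.5 (-1.22) and at 6.05 and 7.64 at E14.5 (0.33). These were the only core genes past the fold at E11.5. *Fancb*, *Fancc* and *Fancg* had E11.5 ratios between -0.34 and -0.56 and E14.5 ratios between 0.18 and 0.39. *Fancf*, an adaptor subunit encoded by a single exon, went the other way at 3.67 FPKM in control and 5.54 in CKO (0.58, just short of the threshold), and so did *Fance* (7.52 and 9.73, a ratio of 0.37) and the ubiquitin ligase subunit *Fancl* (8.50 and 9.41, 0.14). At E14.5 the ratios of these 3 were -0.02, -0.07 and 0.20. Thus 3 of the 6 members that were higher in CKO at E11.5 belonged to this complex, and 53.9% of all genes were higher at that stage. The ratios of *Fance* and *Fancl* lay within the quartiles of all genes. The *Fancl* ratio became -0.09 on rescaling without erythroid genes. In the mm9 annotation *Fancf* shares 253 of 1691 exonic bases with *Gas2* on the opposite strand and *Fancl* shares 462 of 3372 with *Vrk2*, and it is not stated that the counting used strand.

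The substrates of that complex were both lower in CKO. *Fancd2* was at 9.78 FPKM in E11.5 control and 3.72 in CKO ganglia (-1.37), and at 4.88 in E14.5 wildtype and 7.27 in hypomorphic ganglia (0.57). *Fanci*, its partner, was at 8.64 and 4.34 at E11.5 (-0.98) and at 4.70 and 6.94 at E14.5 (0.55), with 14.8% of its exonic bases shared with *Polg* on the opposite strand. With 2 genes the group had the lowest median of the 10 at E11.5, -1.17, and the highest at E14.5, 0.56.

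All 5 genes of the BRCA group were past the fold lower at E11.5, which no other group of more than 2 genes showed. *Brca1* (chromosome 11 from 101350078 to 101413269 in mm9), the ubiquitin ligase that commits breaks to recombination, was at 12.3 FPKM in control and 4.40 in CKO ganglia, 35.7% of control, and at 5.90 in E14.5 wildtype and 9.17 in hypomorphic ganglia, 155% of wildtype. *Bard1* (chromosome 1 from 71074072 to 71149720), its obligate partner, had the lowest ratio of all members, -2.11, with 4.30 FPKM in control and 0.92 in CKO, and stood at 3.84 and 4.88 at E14.5 (0.34). It was the only member under 1 FPKM in any group, so it entered the comparison through its control value, and its ratio was -1.47 with a pseudocount of 1. *Brca1* thus had the higher ratio of the pair at both stages. *Brca2*, a mediator of strand invasion, was at 6.19 and 2.98 FPKM (-1.03) and then at 2.86 and 4.04 (0.49). *Palb2*, the bridge between BRCA1 and BRCA2, was at 3.02 and 1.44 (-1.02) and at 2.29 and 2.71 (0.24), and the helicase *Brip1* was at 4.49 and 2.70 (-0.71) and at 1.65 and 2.44 (0.54).

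Downstream in recombination, 5 of 7 genes were past the fold lower at E11.5. *Rad54b*, a chromatin translocase of strand invasion, was at 8.53 FPKM in controls and 2.41 in CKO (-1.78) and at 4.89 and 7.37 in E14.5 wildtype and hypomorphic ganglia (0.58). Its relative *Rad54l* was at 11.9 and 4.97 (-1.24) and at 7.51 and 10.5 (0.48), with 15.4% of its exonic bases shared with *Lrrc41* on the opposite strand. *Blm*, the Bloom syndrome helicase, which dissolves crossed strands, was at 16.5 and 7.74 (-1.08) and at 9.56 and 11.3 (0.24). *Rad51ap1*, which stimulates strand invasion, had ratios of -0.87 and 0.50. *Rad51c*, *Xrcc2* and *Xrcc3*, mediator genes of one family, differed less. *Xrcc3* was at 3.41 and 2.0 FPKM at E11.5 (-0.74), while *Rad51c* (-0.38) and *Xrcc2* (-0.33) stayed within the fold. At E14.5 the order of these mediators by signed ratio was the same, with 0.51 for *Xrcc2*, 0.10 for *Rad51c* and 0.07 for *Xrcc3*. By size of the difference it was turned.

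At E11.5 the resection genes *Exo1* and *Rbbp8* were past the fold lower, unlike the genes of the break sensor. The MRN complex tethers broken ends and activates ATM, and its 3 genes were within the fold at both stages. *Mre11a* was at 9.78 FPKM in E11.5 control and 9.69 in CKO ganglia (-0.01), *Rad50* had a ratio of -0.33 and *Nbn* of -0.25, and at E14.5 the ratios were 0.19, 0.30 and 0.33. *Exo1*, the long-range resection nuclease that also serves mismatch repair, was at 11.1 and 6.02 FPKM at E11.5 (-0.87) and at 4.42 and 6.99 at E14.5 (0.65). *Rbbp8*, which encodes the resection factor CtIP, was at 13.7 and 7.62 (-0.84) and at 7.09 and 9.61 (0.43).

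End joining was the group with the least difference. None of its 5 genes was past the fold at either stage, and its median ratio was -0.07 at E11.5 and -0.01 at E14.5. *Xrcc5* and *Xrcc6* encode Ku80 and Ku70, the 2 parts of the ring that binds broken ends. *Xrcc5* was at 21.8 FPKM in control and 29.4 in CKO ganglia (0.43), while *Xrcc6* was at 20.3 and 17.2 (-0.24), so that the genes of this obligate pair differed in direction at E11.5. Both ratios lay within the quartiles of all genes, -0.31 and 0.45. At E14.5 *Xrcc5* was at 14.5 in wildtype and 15.1 in hypomorphic ganglia and *Xrcc6* at 15.2 and 15.1. *Lig4*, the ligase of the pathway, was at 8.20 and 8.30 FPKM at E11.5 (0.02) and at 7.22 and 6.43 at E14.5 (-0.16, the lowest E14.5 ratio of any member). Its scaffold *Xrcc4* had ratios of -0.07 and -0.01 and the DNA-dependent kinase *Prkdc* of -0.12 and 0.07. On rescaling, the sign at E11.5 turned for *Lig4* (-0.21), and that at E14.5 turned for *Xrcc4* and *Xrcc6*.

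Set against end joining within the same table, a difference that does not depend on how the table was scaled, 3 of the 9 other groups stood farthest away at both stages: the FANCD2-FANCI pair, the BRCA group, and the mediators, RAD54 and BLM. At E11.5 the FANCD2-FANCI pair was at -1.10 in log2 relative to end joining, the BRCA group at -0.95 and the group of mediators, RAD54 and BLM at -0.80. The checkpoint group followed at -0.55, RPA at -0.38, the Fanconi core at -0.35, single-strand break repair at -0.33, mismatch repair at -0.27 and MRN with resection at -0.25. At E14.5 the same 3 groups stood farthest above end joining, by 0.57, 0.49 and 0.49. Mismatch repair (0.20) and single-strand break repair (0.21) stood nearest to it. Of the 14 genes of the 3 recombination groups, joined after their values were seen, 12 were past the fold lower at E11.5 and all 14 were higher by some amount at E14.5. Of all genes 12.9% were past the fold lower at E11.5 and 50.7% were higher at E14.5.

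**Figure D2:**
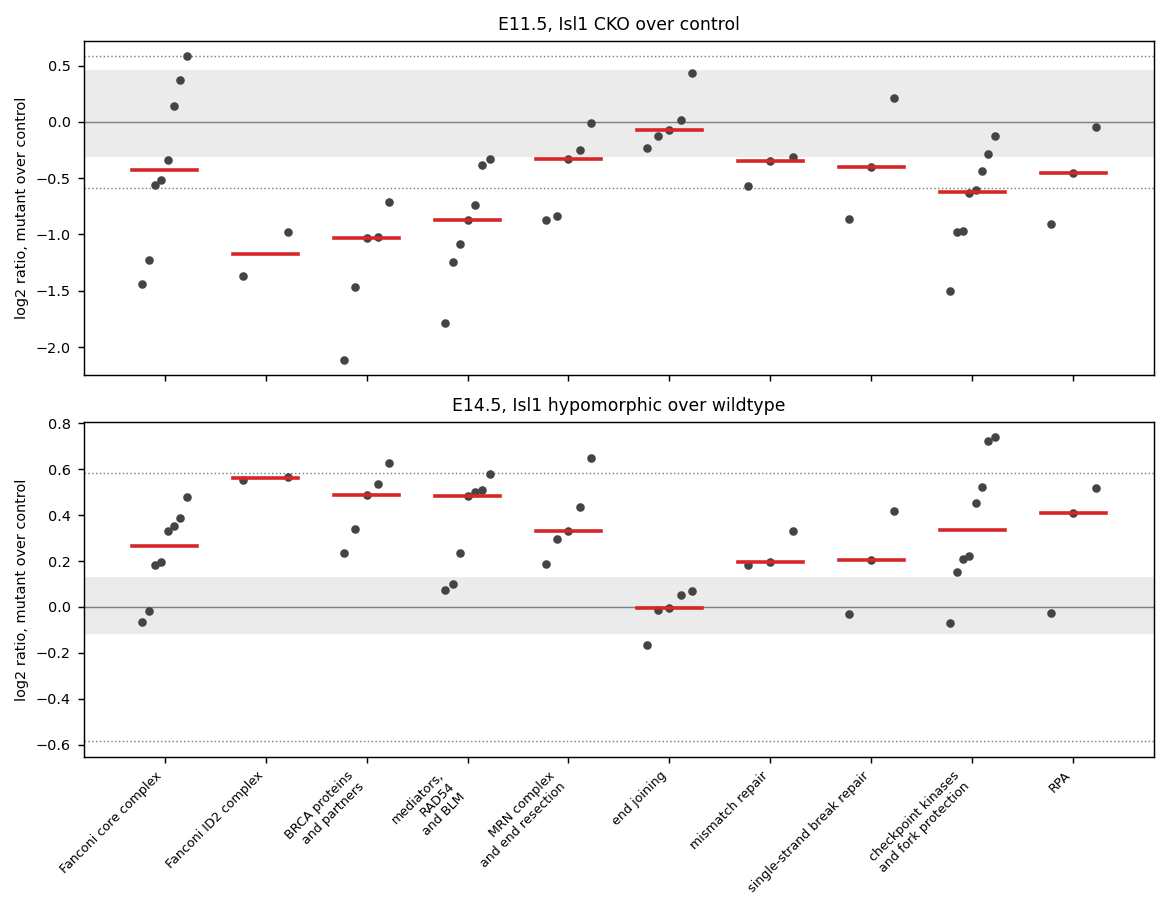
Log2 ratio of mutant over control (FPKM + 0.1) for each DNA repair gene by pathway, at E11.5 (top) and E14.5 (bottom, on a narrower axis); points are genes in order of value, red bars are pathway medians, the grey band is the middle 50 percent of all genes in the table and dotted lines are the 1.5-fold threshold. End joining lies at -0.07 and -0.01, the FANCD2-FANCI pair at -1.17 and 0.56.

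Mismatch repair and single-strand break repair lay between. *Msh6*, of the mismatch sensor for base mispairs, was at 29.5 FPKM in E11.5 control and 23.2 in CKO ganglia (-0.35) and at 16.5 and 20.8 at E14.5 (0.33). *Msh3*, of the sensor for small loops, had ratios of -0.57 and 0.18, and *Pms2*, the nuclease subunit, of -0.31 and 0.20. *Lig1*, the ligase that seals Okazaki fragments as well as repair nicks, was at 73.0 and 40.0 FPKM (-0.87) and at 43.0 and 57.4 (0.42). The scaffold *Xrcc1* was at 24.0 and 27.8 (0.21) and at 23.0 and 26.5 (0.20), the only repair gene of its group that was higher in both mutants, although its E11.5 ratio became -0.03 on rescaling. *Parp1*, the nick sensor and the most abundant member, was at 80.0 and 60.5 FPKM (-0.40) and at 70.7 and 69.2 (-0.03).

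Among the checkpoint genes, *Clspn*, *Timeless* and *Chek1* differed most at E11.5, while *Tipin* of the replication fork (-0.63) was close to the damage-sensing kinase *Atm* (-0.61). *Clspn* (chromosome 4 from 126234179 to 126271147 in mm9), which encodes the adaptor Claspin, was at 20.4 FPKM in E11.5 control and 7.15 in CKO ganglia, 35.0% of control, and at 8.85 in E14.5 wildtype and 14.8 in hypomorphic ganglia, 168% of wildtype. *Chek1* (chromosome 9 from 36516067 to 36534650), the kinase that Claspin presents to ATR, was at 25.5 and 13.0 (-0.97) and at 9.42 and 15.6 (0.72). These were the 2 highest E14.5 ratios of all members. The fork protection pair was unequal, with *Timeless* at 21.8 and 11.01 FPKM (-0.98) and then 19.9 and 23.0 (0.21), and *Tipin* at 47.8 and 30.8 (-0.63) and then 22.9 and 32.9 (0.52). The sensing kinases *Atm* (-0.61 and 0.22) and *Atr* (-0.44 and 0.15) were nearer to zero than *Clspn* and *Chek1* at both stages. *Chek2*, the target of ATM, was at 5.29 and 4.34 FPKM (-0.28) and at 2.11 and 2.92 (0.45), and the ATR partner *Atrip* was at 7.98 and 7.29 (-0.13) and at 10.3 and 9.77 (-0.07), with 25.8% of its exonic bases shared with *Trex1* on the same strand.

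RPA coats single-stranded DNA as a trimer of RPA1, RPA2 and RPA3, and the 3 genes did not keep a common ratio. At E11.5 *Rpa1* was at 49.4 FPKM in control and 47.8 in CKO ganglia (-0.05), *Rpa2* at 38.5 and 28.1 (-0.45) and *Rpa3* at 44.7 and 23.8 (-0.90). At E14.5 the order was different, with *Rpa1* at 27.5 and 36.6 (0.41), *Rpa2* at 22.5 and 32.2 (0.52) and *Rpa3* at 40.6 and 39.8 (-0.03, turning sign on rescaling).

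At E14.5 the differences were smaller and of the other sign. Of the 49 members 41 were higher in hypomorphic than in wildtype ganglia (50.7% of all genes were), with a median log2 ratio of 0.33 against 0.003 for all genes, whose quartiles were -0.11 and 0.13. The members past the fold higher were *Clspn*, *Chek1*, *Exo1* and *Brca1*, that is 4 of 49 against 2.89% of all genes, and none was past it lower, against 2.12%. *Rad54b* (0.58) and *Fancd2* (0.57) lay just outside the threshold. The 8 members with a lower value in hypomorphic ganglia were *Fance*, *Fancf*, *Xrcc4*, *Xrcc6*, *Lig4*, *Parp1*, *Atrip* and *Rpa3*, and none of their ratios was below -0.16.

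Side by side, 38 members were lower in the mutant at E11.5 and higher at E14.5 by any amount, where 23.7% of the 12727 genes in both tables were so. *Brca1*, *Exo1*, *Chek1* and *Clspn* were past the fold in both of those directions, against 0.864% of all genes. Of the 23 members past the fold lower at E11.5, 17 were at least 1.2-fold higher at E14.5, as were 9 of the 26 within it and 12.2% of all genes. Over the 49 members the ratios of the 2 stages had a Pearson r of -0.61 and a Spearman rho of -0.63, against 0.026 and 0.058 over all genes in both tables. These are descriptions across genes, which are not independent replicates, since many members are cell cycle genes read from the same libraries. The stages also differed in allele, in the cells that carried it and in age, and these cannot be told apart.

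**Figure D3:**
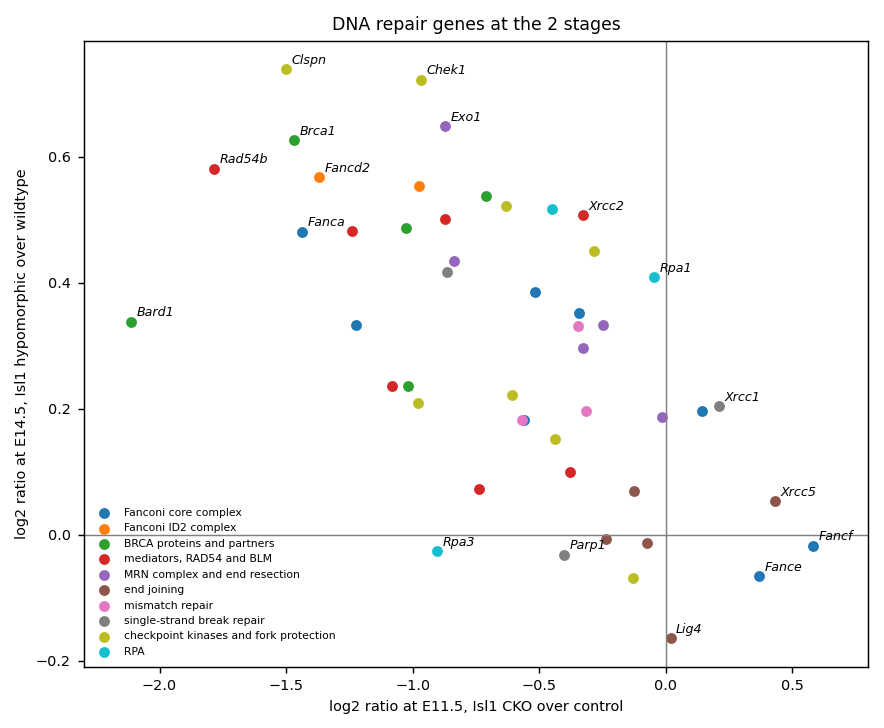
Log2 ratio at E11.5 (CKO over control, horizontal) against that at E14.5 (hypomorphic over wildtype, vertical) for the 49 DNA repair genes, coloured by pathway, with 17 genes named. The upper left part holds 38 genes, and the end joining genes gather near the horizontal zero line.

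The promoters of the members were searched for an E2F motif, since E2F factors drive S phase genes, and sequences of 8 members are shown because they carry that motif and range widely in their E11.5 ratios. The motif was TTTCCCGC, TTTCGCGC, TTTGCCGC or TTTGGCGC on either strand, within 250 bases before and 50 bases after the annotated start (RefSeq, GRCm38.p6). Of the members 40 had an entry, with 45 promoters, and 11 of these (24.4%) held the motif, against 2.26% of all 32851 promoters and 3.84% of the 12657 promoters of genes in that table. Median GC content was 60% in members and 61.0% in genes of the table. The share was 34.8% for 23 promoters of S phase genes and 7.87% for 89 promoters of other repair genes. *Rad54b*, *Xrcc2*, *Nbn*, *Fancd2*, *Rad50*, *Exo1*, *Tipin*, *Prkdc* and *Rbbp8* had no entry. In the windows below, written 5′ to 3′ on the strand of the gene, capitals mark the motif.
Bard1, chr1:71103148-71103207, minus strand: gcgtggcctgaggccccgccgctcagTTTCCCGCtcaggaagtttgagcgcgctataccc
Brca2, chr5:150522427-150522486, plus strand: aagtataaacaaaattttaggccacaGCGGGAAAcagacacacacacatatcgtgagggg
Chek2, chr5:110839805-110839864, plus strand: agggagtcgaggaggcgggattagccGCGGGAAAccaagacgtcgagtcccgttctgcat
Clspn, chr4:126556990-126557019, plus strand: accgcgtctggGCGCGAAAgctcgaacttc
Fancg, chr4:43010320-43010379, minus strand: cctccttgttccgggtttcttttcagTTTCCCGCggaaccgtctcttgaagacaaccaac
Lig1, chr7:13278841-13278870, plus strand: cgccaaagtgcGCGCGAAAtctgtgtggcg
Msh3, chr13:92355172-92355231, minus strand: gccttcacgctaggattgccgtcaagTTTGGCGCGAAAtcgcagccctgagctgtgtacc
Xrcc6, chr15:82016297-82016356, plus strand: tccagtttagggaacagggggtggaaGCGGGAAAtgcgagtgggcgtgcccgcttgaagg

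Members with and without the motif overlapped in their ratios. *Bard1*, with the lowest E11.5 ratio (-2.11), and *Xrcc6*, an end joining gene at -0.24, both held it, and in *Msh3* 2 copies on opposite strands overlap. *Msh6* and *Rad51c* were the other members with the motif. The 10 genes with the motif had a median ratio of -0.56 at E11.5 and 0.34 at E14.5, and the 30 without it had -0.48 and 0.22. Of those with it 4 were past the fold lower at E11.5, and of those without it 14, among them *Brca1*, *Chek1*, *Blm* and *Fanci*. At E14.5, 6 of those with it and 12 of those without it were at least 1.2-fold higher, against 12.2% of all genes. The 9 members without a promoter entry are in none of these counts. The CHR element of G2 and M phase genes (TTTGAA or TTCGAA) was in 4.44% of the members' promoters and in 13.1% of those of genes in the table. It was in 78.6% of 14 promoters of G2 and M phase genes. A CCAAT box was in 27 of the members' 45 promoters and in 37.4% of those of genes in the table. A match of letters is not a binding site, and a window without one says nothing of the factor.

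In control ganglia the repair genes stood lower at the later stage, though the tables were normalized separately and the E11.5 controls carried *Wnt1-Cre* while those at E14.5 did not. Of the 49 members 43 had a lower value in E14.5 wildtype than in E11.5 control ganglia (35.8% of genes in both tables did), 23 by at least 1.5-fold and 3 higher by as much, against 12.7% and 29.7% of genes in both tables. The median log2 ratio of the later over the earlier stage was -0.58 for the members and 0.24 for all genes. *Chek1* (-1.43, from 25.5 to 9.42 FPKM), *Brip1* (-1.39), *Exo1* (-1.31), *Chek2* (-1.29) and *Clspn* (-1.20) had the lowest ratios. *Fancf* (0.99), *Fance* (0.61) and *Xrcc3* (0.60) were those past the fold higher. By rank, which does not depend on scaling but does on the genes each table lists, the members stood lower at E14.5. Their median percentile was 45.5 among E11.5 genes and 32.9 among E14.5 genes. All 5 end joining genes were lower as well, none past the fold, with *Xrcc5* (-0.58) just short of it. Their median was -0.28, against quartiles of -0.21 and 0.68 for all genes. *Parp1* (-0.18), *Timeless* (-0.13) and *Rpa3* (-0.14) also stayed within the fold.

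**Figure D4:**
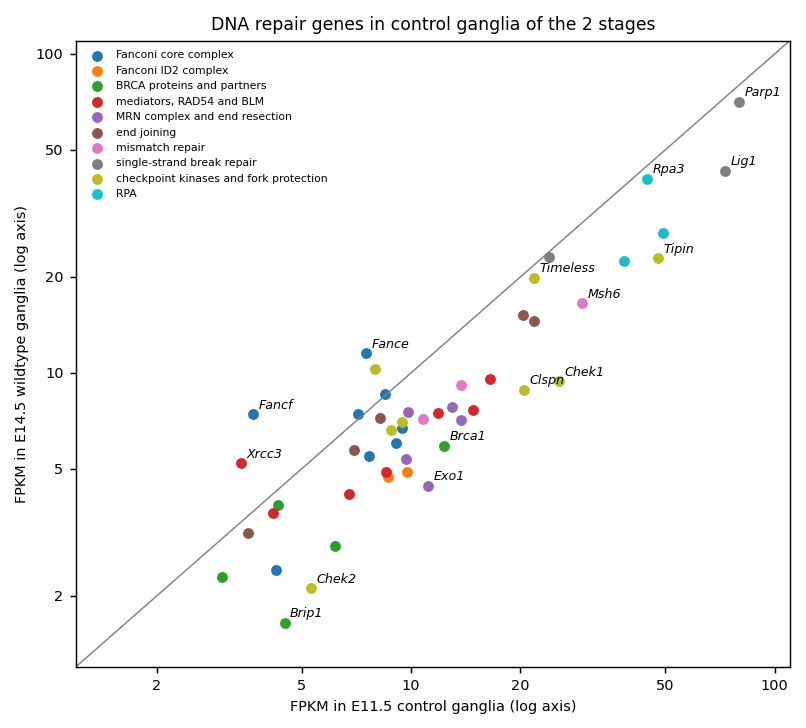
FPKM of the 49 DNA repair genes in E11.5 control (horizontal) and E14.5 wildtype ganglia (vertical), both on log axes, coloured by pathway, with a diagonal line of equal values; the stages were normalized separately. Below the line lie 43 genes, and *Chek1*, *Brip1* and *Exo1* are among those farthest from it.

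Repair genes outside the members were read from a further list of 108, of which 104 were in the E11.5 table and 105 in the E14.5 table. At E11.5, 46.1% of all genes were lower, 12.9% were past the fold lower and 18.9% past it higher. The list at that stage had 71 genes lower, 23 past the fold lower and 3 past it higher, with a median of -0.21. The genes past the fold lower were most often of recombination, with 10 of 21, followed by crosslink repair, with 5 of 16, and other checkpoint genes, with 5 of 20. *Polq*, the polymerase of microhomology-mediated joining, was at 4.93 FPKM in control and 1.36 in CKO ganglia (-1.78), *Mdc1*, a mediator at damaged chromatin, at 25.5 and 8.69 (-1.54), and *Gen1*, a resolvase of crossed strands, at 12.8 and 4.65 (-1.44). Among the 3 past it higher were the glycosylase *Mpg* at 6.94 and 10.9 (0.64) and the phosphatase *Cdc25b* at 18.3 and 28.6 (0.64).

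None of 8 other end joining genes was past the fold at either stage (medians -0.17 and 0.03), nor any of the other mismatch repair genes (4 in the E11.5 and 5 in the E14.5 listing, medians -0.01 and 0.17). *Polq*, past the fold lower at E11.5, also serves a form of end joining but was counted with recombination and not among these 8. Of 20 nucleotide excision repair genes *Ercc6* alone, named after its value was seen, was past it lower at E11.5, and their medians were -0.07 and 0.01. Base excision repair had medians of -0.21 and 0.09 over 15 and 15 genes, and the other checkpoint genes of -0.27 and 0.13 over 20. At E14.5, where 2.89% of all genes were past the fold higher, the whole list had 3 such genes. Among them were *Hells*, a chromatin remodeller (16.0 and 26.9 FPKM, 0.75), and *Gen1* (5.22 and 8.08, 0.62). The 3 lowest, *Rad9b* (-0.26), *Neil1* (-0.21) and *Tdg* (-0.20), were within it. The list's median at E14.5 was 0.09, against 0.33 for the members.

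Cycling genes differed in the same directions as the members. Of all genes 46.1% were lower at E11.5, 12.9% past the fold, and 50.7% were higher at E14.5, 2.89% past it. Of 25 S phase genes 24 were lower in CKO at E11.5, 15 of them past the fold (median -0.64), and all 25 were higher in hypomorphic ganglia, 7 of them past it (median 0.55). Their summed level was 1825 and 1141 FPKM at E11.5 and 669 and 973 at E14.5, and none was at 0. *Pcna*, the sliding clamp, was at 310.2 and 196 FPKM and *Rrm2*, a subunit of ribonucleotide reductase, at 192 and 76.95 at E11.5, while at E14.5 *Mcm6* was at 66.4 and 98.9 and *Rrm1* at 65.8 and 87.3. All 18 G2 and M phase genes were lower at E11.5 (13 past the fold, median -0.80) and higher at E14.5 (2 past it, median 0.49), with sums of 1392 and 780 FPKM and then 572 and 805. *Ube2c*, of the ubiquitin machinery of mitotic exit, was at 227 and 126 FPKM at E11.5 and *Top2a*, the topoisomerase of chromosome separation, at 156 and 69.8. At E14.5 the 7 endothelial markers were also all higher in hypomorphic ganglia, 1 of them past the fold, with sums of 83.1 and 117 FPKM. Of 18 erythroid genes 17 were higher, 4 past the fold (median 0.39, sums 5664 and 6885 FPKM), all 8 mesenchymal markers were higher with none past it (sums 1409 and 1570), and the 8 neural crest and glial markers summed to 420 and 453. The part of all these genes in the members' result was not tested.

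The p53 response, the transcriptional output of ATM and CHK2 signalling, did not run with the members. Of 20 genes 18 were in the E11.5 table, 12 of them higher in CKO by any amount and 6 lower, with a median of 0.32. Past the fold 6 were higher and 1 lower, against 18.9% and 12.9% of all genes, and 11 were within it. In the E14.5 table were 17, none past the fold, with a median of 0.01. *Ei24* was at 45.7 and 70.6 FPKM at E11.5 (0.63) and 51.5 and 52.0 at E14.5, and the death effector *Bax* at 56.2 and 51.3 and then 82.2 and 75.2. The 1 gene past the fold lower was *Zmat3* (-1.21), named after its value was seen. *Perp*, 1 of the 6 past it higher, was at 0.28 FPKM in control and 1.47 in CKO ganglia, so it was listed through its CKO value. *Cdkn1a* (-0.04) and *Mdm2* (-0.27) were lower at E11.5, within the fold. These genes too were named after their values were seen.

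**Figure D5:**
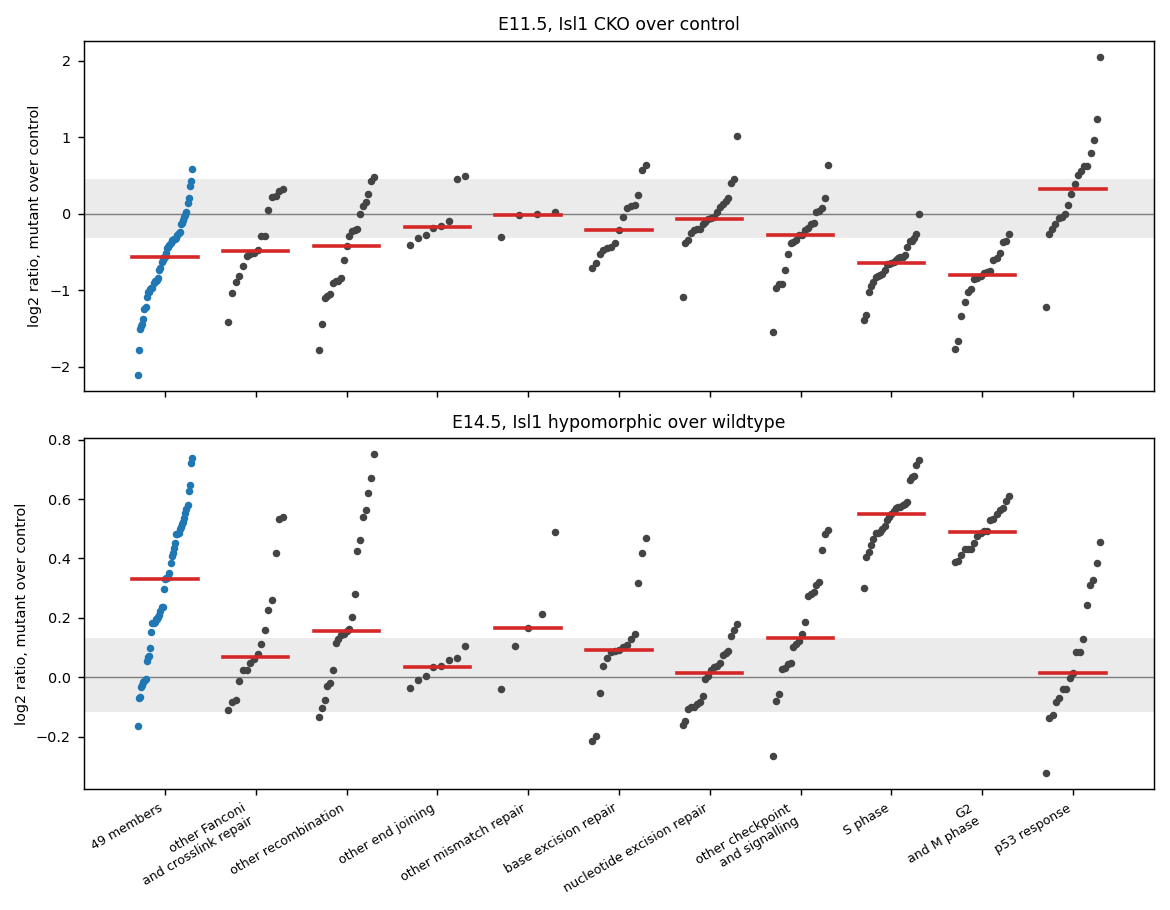
Log2 ratio of mutant over control for the 49 members (blue), other repair genes by pathway, and S phase, G2 and M phase and p53 response genes, at E11.5 (top) and E14.5 (bottom, on a narrower axis); red bars are list medians and the grey band is the middle 50 percent of all genes. The members' medians, -0.56 and 0.33, lie between those of the S phase genes (-0.64 and 0.55) and of nucleotide excision repair (-0.07 and 0.01).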

How the data were processed

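RNA-seq was made from sympathetic ganglia of 4 groups with 2 libraries each (8 samples, grouped by their titles), at E11.5 and E14.5. Per the study's methods, reads were aligned with TopHat 2.3.0 to mm9 and quantified with cuffdiff 2.2.1. The submitters' processing notes instead name Bowtie, TopHat 1.3.1, Cuffdiff 1.3.0 and the build dm3, a fly assembly. The genes are mouse genes, and the version used was not settled here. The authors deposited, for each stage, a table of FPKM with 1 value per gene and genotype, in which both libraries are combined. Columns of the authors' own log2 fold changes and p-values were not used. Depth is unknown and replicate error cannot be computed, so no test was run.

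Log2 ratios were computed on FPKM + 0.1 with Python 3.11.15, pandas 2.3.3 and numpy 2.4.6, with no further filter on low values. As deposited, every listed gene reached at least 1 FPKM in 1 or both genotypes of its stage, and shares of all genes are over these genes. The computation was tested on known changes put into the E14.5 wildtype values. A difference of 1.5-fold was used as the threshold. Members, gene lists (repair pathways, S phase, G2 and M phase, p53 response, and markers of sympathetic neurons, neural crest and glia, erythroid cells, mesenchyme, endothelium, macrophages, and trophoblast and yolk sac) and motifs were chosen with earlier results of these data known. Named genes were all members, the 3 lowest and 3 highest other repair genes per stage, the 2 most abundant genes of a list and Isl1; others are marked, and some genes that this rule picks are not reported here. Exon overlap was read from GENCODE vM1 on mm9, in which 17 members share exonic bases with another gene, and promoters from RefSeq on GRCm38.p6. Endothelial, macrophage, and trophoblast and yolk sac lists had median log2 ratios of 0.39, 0.98 and 1.77 at E11.5 and of 0.49, 0.25 and 0.59 at E14.5, and mesenchyme had 0.77 and 0.28. Alternatives were pseudocounts of 0.01 and 1, FPKM filters of 1 and 5, centring on the median, rescaling without erythroid genes, thresholds of 1.2-fold and 2-fold, and motifs in the last 150 bases of the promoter, from 100 before to 50 after the start.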

Additional observations from a re-analysis of the deposited data

Results flagged for a closer look

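The members with a ratio past 1.5-fold at both stages and of opposite sign are *Brca1* (log2 ratio -1.47 at E11.5 and 0.63 at E14.5), *Exo1* (-0.87 and 0.65), *Chek1* (-0.97 and 0.72) and *Clspn* (-1.50 and 0.74). Each was singled out because the single value of one mutant lies below its control and that of the other mutant above it. The difference between the stages was not tested, since each genotype has 1 combined value, and allele and age differ between the stages.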

How the results depend on the processing

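No paired analysis was possible because the tables hold 1 combined value per genotype, although the labels number the libraries of each group, and for the same reason no library could be left out. A median or a gene's ratio was called moved when it changed by over 0.58 in log2, and a count when it changed by over 1.5 times. No ratio past the threshold changed sign. The 23 members lower at E11.5 became 11 at a 2-fold threshold and 36 at 1.2-fold, where 4.83% and 27.5% of all genes were lower, and the 0 higher became 1 (*Fancf*) with a pseudocount of 0.01 and 3 at 1.2-fold, where 19.4% and 34.8% of all genes were higher. The 4 members higher at E14.5 became 2 with a pseudocount of 1, 0 at 2-fold and 26 at 1.2-fold, where 1.62%, 0.98% and 12.2% of all genes were higher. Those past the threshold at both stages in opposite directions went from 4 to 2, 0 and 24 under the same settings, against 0.558%, 0.228% and 4.2% of genes in both tables. The 8 members lower at E14.5 by any amount became 4 on rescaling without erythroid genes. Promoters with the E2F motif went from 11 to 7 of 45 in the last 150 bases of the promoter, from 100 before to 50 after the start, and to 0 in the BRCA group. The ratio of *Bard1* at E11.5 went from -2.11 to -1.47 with a pseudocount of 1. Of the remaining values, 197 summary values and 578 values of single genes or pathways stayed within those limits. Depth is unknown, so how far it limits the low genes, such as *Bard1*, cannot be stated.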
